A study of Mus musculus with 109 samples.

Results

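Atoh1, Neurod1, Neurod2, Nhlh1 and Nhlh2, which code for neural transcription factors of the basic helix-loop-helix (bHLH) family, were followed through single cells of the developing mouse cerebellum. They were taken by symbol, as 5 of the 15973 genes listed in the count table. The table held cells from P7 (postnatal day 7) mouse cerebella, enriched for granule cell progenitors (GCPs) on a Percoll density gradient, caught singly on C1 Fluidigm chips and sequenced with Smart-seq. The label of every cell ends in the name of 1 of 6 library groups, which held 18 or 19 cells each. The labels give the strain as C57BL/6, whereas the study's methods name ICR pups, and which of them gave these cells cannot be told from the sources used here. The animals carried no label of a mutation or treatment, and no label tied a cell to an animal, so p-values measure only the spread between library groups, which may be technical. The comparison asked how the factors differed between cells with high and low levels of the proliferation gene Mki67, and which factors shared a cell.

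Proneural bHLH factors bind DNA at short E-box motifs as dimers with E proteins such as Tcf3, Tcf4 and Tcf12, while Id proteins bind the E proteins and keep them from DNA. In the cerebellum Atoh1 specifies the granule lineage in the rhombic lip and is used by GCPs of the external granule layer, where Sonic hedgehog drives their division. Neurod1 is needed for granule cell differentiation and survival, Neurod2 belongs to the same subfamily, and the small factors Nhlh1 and Nhlh2 are found in young neurons that leave the cell cycle.

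The E-box CAGATG is a form of the motif that dimers of Neurod and E proteins are known to bind. In the 250 bases before the RefSeq start (GRCm38.p6), this motif was found once each for Neurod2, Nhlh1 and Nhlh2 and was not found for Atoh1 or Neurod1. It is shown in capitals, with the neighbouring bases, so that the 3 matches can be compared 5′ to 3′ on the strand of the gene.
Neurod2 (chr11:98329746-98329775, minus strand): agtagagagtgaCAGATGgcggcgggtccc
Nhlh1 (chr1:172057782-172057811, minus strand): atgcatggagaaCAGATGtccctgctcccc
Nhlh2 (chr3:102010006-102010035, plus strand): cccacactgtgaCAGATGtcaagtccaatt
The matches began 118, 203 and 127 bases before the start of Neurod2, Nhlh1 and Nhlh2. CAGATG on either strand occurred in 14.4% of 32851 promoter windows of this length. The general form CANNTG, which contains CAGATG, occurred in 66.2% of windows and in 4 of the 5 members, Atoh1 being without it. CAGCTG, another form that overlaps CANNTG, was in 13% of windows and in 0 of the 5. A match of letters does not show binding.

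The genes lie on separate chromosomes of GRCm38. Atoh1 is a gene of 1 exon (chr6:64729125-64731245, plus strand). Neurod1 (chr2:79452521-79456751, minus strand) overlaps Cerkl on the same strand, so reads cannot be fully told apart between them by position. Cerkl reached 10 CPM (counts scaled to a total of 1000000 per cell) in 6 of 32 Mki67-high and 9 of 75 Mki67-low cells, far fewer than Neurod1. Neurod2 is at chr11:98325415-98329648 (minus strand), Nhlh1 at chr1:172052292-172057573 (minus strand) and Nhlh2 at chr3:102010076-102015492 (plus strand).

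Cells with at least 100 CPM of Mki67 were called Mki67-high and cells under 10 CPM Mki67-low. There were 32 Mki67-high and 75 Mki67-low cells, and the 2 cells left lay between the limits. The lowest Mki67-high cell had 132 CPM and the highest Mki67-low cell 9.27 CPM, with the cells between at 66.4 and 21.3 CPM, so few cells lay near the limits. Each library group held 3 to 8 Mki67-high and 10 to 15 Mki67-low cells. Pcna, the replication clamp, reached 100 CPM in 14 of 32 Mki67-high and 15 of 75 Mki67-low cells. Low Mki67 alone therefore does not show that a cell had left the cycle. Total counts ran from 15071 to 8616017 per cell, with medians of 4157700 in Mki67-high and 3580460 in Mki67-low cells. A median of 4967.5 genes was detected in Mki67-high cells and of 4193 in Mki67-low cells. Of all cells, 3 stood apart in depth: 2 Mki67-high cells with more than 10000 detected genes, and 1 cell between the limits with the lowest total. At least 5 of 8 astroglial genes reached 50 CPM in 4 cells, of which 3 were Mki67-high and 2 were those with the most genes. These cells are called astroglial-gene cells below, and several results are given with and without them.

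Granule lineage genes were measured in both classes. Pax6, Zic1 and Meis1, which mark granule lineage cells, averaged 545 ± 258, 801 ± 733 and 947 ± 524 CPM in the Mki67-high sums and 852 ± 570, 854 ± 452 and 1030 ± 636 CPM in the Mki67-low sums (SD, n = 6 library groups). Other genes of the lineage differed more in level, Cntn2 averaging 171 ± 184 and 762 ± 226 CPM, Sfrp1 1289 ± 987 and 566 ± 391 CPM, and Gli2, a hedgehog effector, 236 ± 307 and 22.5 ± 31.6 CPM. Sums are the counts of all cells of a class in a library group added together and given as CPM.

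Per kilobase of exon, the scale on which genes can be ranked, Neurod1 had the highest average in both classes. Its Mki67-low sums averaged 810 ± 376 CPM per kilobase (SD, n = 6) with a range of 437 to 1416, above every sum of the other 4 factors. Nhlh2 followed at 72.0 ± 26.6, Nhlh1 at 27.9 ± 26.7, Neurod2 at 19.6 ± 20.4 and Atoh1 at 2.72 ± 5.35 CPM per kilobase. Nhlh1 and Neurod2 overlapped over most of their ranges, 5.57 to 76.3 and 1.91 to 51.2, and cannot be ordered. The range of Nhlh2, 49.4 to 117, also overlapped the upper ends of both. In Mki67-high sums Neurod1 averaged 552 ± 367 CPM per kilobase with a range of 97.2 to 1047, and Atoh1, at 0 to 171, was above it in library group 2. The averages of Nhlh2 (37.9 ± 25), Atoh1 (37.5 ± 66.3), Nhlh1 (18.9 ± 20.9) and Neurod2 (16.9 ± 30.4) there did not differ beyond their spread.

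**Figure D1:**
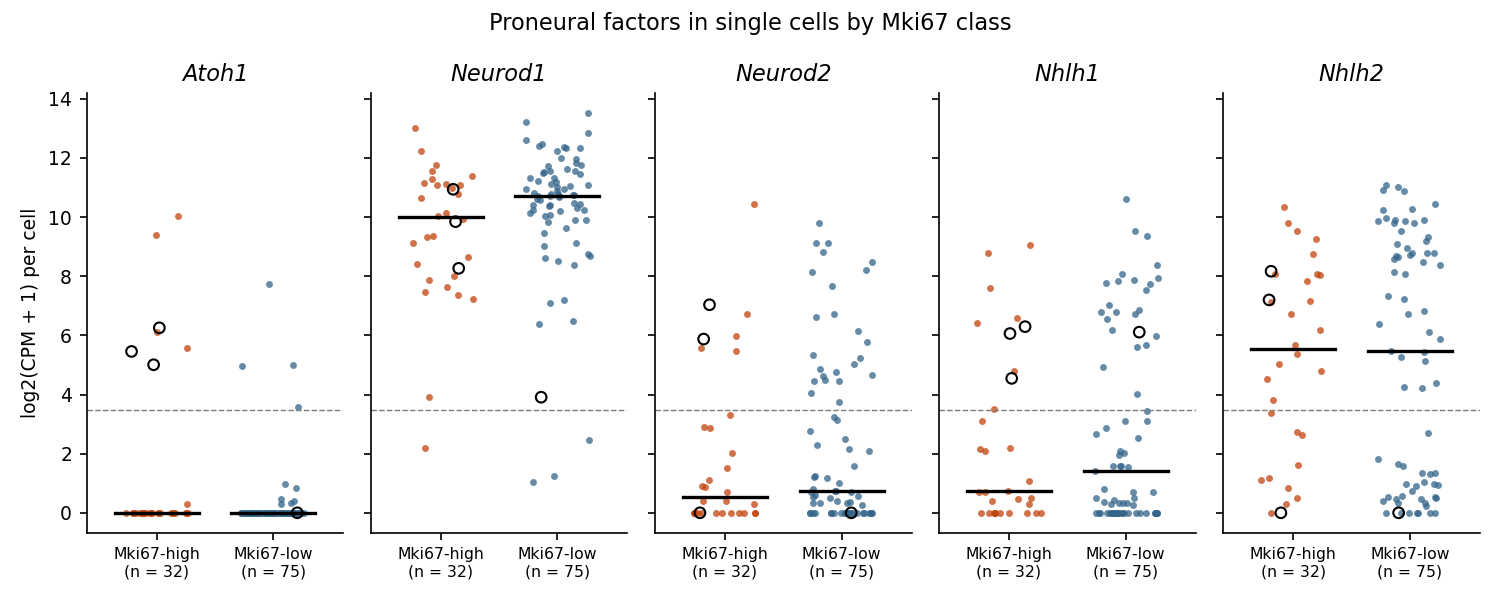
Each point is a cell and the vertical axis is log2(CPM + 1); black lines are class medians, the dashed line is 10 CPM, and open circles are cells with unusual depth or astroglial genes. Neurod1 was above 10 CPM in 31 of 32 Mki67-high and 72 of 75 Mki67-low cells, whereas most cells of both classes had no Atoh1 and Nhlh2 was split into cells far above and cells near 0.

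Atoh1, the factor of dividing progenitors, was found in few cells. At least 10 CPM were reached by 7 of 32 Mki67-high cells (21.9%, 95% Wilson interval 11 to 38.8) and 4 of 75 Mki67-low cells (5.33%, 2.09 to 12.9). Leaving out the astroglial-gene cells made this 4 of 29 (13.8%, 5.50 to 30.6) and 4 of 74 cells (5.41%, 2.12 to 13.1). Atoh1 was therefore below 10 CPM in most cycling cells of this table. The intervals treat cells as independent draws and do not cover differences between library groups. The libraries carry no molecular identifiers, so counts are of reads and not of molecules.

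In Mki67-high sums Atoh1 measured 15.9, 362, 6.53, 0, 69.2 and 23.1 CPM in library groups 1 to 6. In Mki67-low sums it measured 0.0696, 3.08, 0, 2.73, 0 and 28.8 CPM in the same order. Atoh1 was higher in Mki67-high sums of groups 1, 2, 3 and 5, lower in groups 4 and 6, and the ranges overlapped. A sum of 0 allowed up to 0.197 CPM (3 counts) in the Mki67-high cells of group 4, and up to 0.102 and 0.0753 CPM in the Mki67-low cells of groups 3 and 5. Single cells carried these sums: 1 cell gave all the Atoh1 counts in the Mki67-high sums of groups 1, 2 and 3.

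The edgeR quasi-likelihood test on the sums gave Atoh1 a log2 fold change of 3.85 (SE 2.17, adjusted p = 0.725). The value was 1.97 without library group 2 and 6.20 without group 6. Weighting cells equally, mean log2(CPM + 1) was 1.48 ± 0.98 in Mki67-high and 0.32 ± 0.37 in Mki67-low cells (SD over 6 groups). The difference of 1.16 ± 0.86 was positive in 5 of 6 groups (exact two-sided sign-flip permutation p = 0.0625). Without the cells of unusual depth it was 0.92, positive in 4 of 6 groups (exact sign-flip p = 0.125). The share of cells with any Atoh1 count was higher in Mki67-high cells by 10.7 ± 21.3 percentage points over 6 groups (exact sign-flip p = 0.3125), and by 4.48 percentage points without the astroglial-gene cells. The share at 10 CPM or more was higher by 16.1 ± 14.2 percentage points, in 5 of 6 groups (exact sign-flip p = 0.0625). In group 3 that difference came from 1 cell, an astroglial-gene cell of unusual depth. Leaving it out was not tested for this share. The smallest p that 6 groups allow is 0.03125.

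The 11 cells with at least 10 CPM of Atoh1 differed widely. The strongest, a Mki67-high cell of library group 2, had 1043 CPM of Atoh1, 162 CPM of Neurod1 and 1582 CPM of Dcx, the doublecortin gene of young migrating neurons. The next, a Mki67-high cell of group 5, had 675 CPM of Atoh1 beside 232 CPM of Neurod1 and 159 CPM of Dcx. The third was the Mki67-low cell that made up the group 6 sum, with 213 CPM of Atoh1, 558 CPM of Neurod1, 41.9 CPM of Dcx and 957 CPM of Pcna, the replication clamp. The other 8 cells had 75.4 CPM or less, and 3 of them were astroglial-gene cells, at 75.4, 42.9 and 31.1 CPM.

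Cells with a trace of Atoh1 were kept apart from these. In 7 further cells Atoh1 had only 1 or 2 counts, under 1 CPM, and 7 of the 7 were in library groups that also held a cell with at least 10 CPM. Whether such counts came from the cell itself was not tested, and for this reason 10 CPM is used below for a factor to be present.

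Neurod1, the differentiation factor, had a count in each of the cells. It reached 100 CPM in 30 of 32 Mki67-high and 69 of 75 Mki67-low cells, so cycling cells held it as a rule. The median was 1019 CPM (3.60 to 8286) in Mki67-high and 1694 CPM (1.03 to 11610) in Mki67-low cells.

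Summed counts of Neurod1 in Mki67-high cells were 866, 265, 1180, 2556, 2857 and 1322 CPM in library groups 1 to 6. In Mki67-low cells they were 1577, 1193, 1475, 3863, 2963 and 2190 CPM. The Mki67-high sum was the lower in 6 of 6 groups, by little in group 5, while the ranges of the classes overlapped because the groups themselves differed. Such a pattern, lower in all 6 sums, was seen for 3.2% of the 9084 genes tested.

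The edgeR log2 fold change of Neurod1 was −0.63 (SE 0.50, adjusted p = 0.814). It became −0.88 with library group as a block (adjusted p = 0.646) and −1.55 when cells with at least 50 CPM of Mki67 were set against cells with no Mki67 count (adjusted p = 0.377). Mean log2(CPM + 1) was 9.44 ± 1.33 in Mki67-high and 10.17 ± 0.73 in Mki67-low cells, a difference of −0.73 ± 1.33 over 6 groups (exact sign-flip p = 0.25). The difference was negative in 4 of 6 groups, so weighting cells equally did not keep the order of the sums in every group. It was −0.39 without library group 1 and −1.85 with the other Mki67 limits (5 groups, exact sign-flip p = 0.0625).

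The cells with least Neurod1 were few and differed in their marker genes. It was under 10 CPM in 4 cells. A Mki67-low cell of group 2 had 1.03 CPM of Neurod1 beside 7338 CPM of Dcx. At 50 CPM or more were 3 of 8 Purkinje cell and GABAergic genes (Pax2, Gad1, Slc32a1) and 3 of 13 granule lineage genes. A Mki67-low cell of group 4 had 1.35 CPM, with Dcx at 6.32 CPM. At 50 CPM or more it held 3 of 8 oligodendrocyte lineage genes (Olig2, Sox10 and Mbp). It also held 5 of 10 postmitotic neuron genes and 0 of 13 granule lineage genes at that level. A Mki67-low cell of group 3 had 4.5 CPM. At 50 CPM or more it held 4 of 8 astroglial, 3 of 13 granule lineage, 3 of 13 proliferation and 3 of 10 postmitotic neuron genes. Summed over each list, these genes had 27167, 2449, 1723 and 1412 CPM, in that order. With 4 astroglial genes this cell was not counted as an astroglial-gene cell. The fourth, a Mki67-high cell of group 1, had 3.60 CPM of Neurod1 and 47.7 CPM of Dcx. At 50 CPM or more it held 6 of 13 granule lineage and 4 of 10 postmitotic neuron genes. Whether the few Neurod1 counts of these cells came from the cells themselves was not tested.

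Neurod2, of the same subfamily as Neurod1, was far sparser. It reached 10 CPM in 7 of 32 Mki67-high cells (21.9%, 11 to 38.8) and 24 of 75 Mki67-low cells (32%, 22.5 to 43.2). Without the astroglial-gene cells it did so in 5 of 29 (17.2%, 7.60 to 34.5) and 24 of 74 (32.4%, 22.9 to 43.7). The sums in library groups 1 to 6 were 2.55, 246, 16.1, 0.921, 11.4 and 42.2 CPM in Mki67-high cells. In Mki67-low cells they were 161, 24.6, 124, 22.3, 6.00 and 31.4 CPM. Each class was the higher in 3 groups, and 93.5% of the Mki67-high counts of group 2 came from 1 cell with 1381 CPM. The edgeR log2 fold change was −0.33 (SE 1.39, adjusted p = 0.982) and the difference in mean log2(CPM + 1) −0.30 ± 2.05 over 6 groups (exact sign-flip p = 0.75). No direction was detectable for Neurod2, and its fold change was positive without library group 1 (0.41) or 3 (0.33).

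Nhlh1 reached 10 CPM in 10 of 32 Mki67-high cells (31.3%, 18 to 48.6) and 24 of 75 Mki67-low cells (32%, 22.5 to 43.2). Without the astroglial-gene cells Nhlh1 did so in 7 of 29 (24.1%, 12.2 to 42.1) and 23 of 74 (31.1%, 21.7 to 42.3). Its sums were 16.3, 1.07, 129, 1.58, 84.1 and 47.2 CPM in Mki67-high cells of groups 1 to 6. The Mki67-low sums were 188, 13.7, 79.7, 81.5, 13.8 and 35.5 CPM. Mki67-low cells had the higher sum in groups 1, 2 and 4 and the lower in groups 3, 5 and 6. The log2 fold change was −0.80 (SE 1.29, edgeR adjusted p = 0.920), and the difference in mean log2(CPM + 1) was −0.57 ± 1.5 over 6 groups (exact sign-flip p = 0.4375). The fold change was −0.02 without library group 1, −0.35 without group 4 and −1.63 with library group as a block, and the log difference −0.20 without group 4 and −1.03 without group 5. At least 100 CPM of Nhlh1 were reached by 16 of 75 Mki67-low cells (21.3%, 13.6 to 31.9), up to 1566 CPM. Of the 32 Mki67-high cells 3 reached it (9.38%, 3.24 to 24.2), up to 528 CPM. These intervals overlapped, and the highest values are those of single cells in classes of unequal size.

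Nhlh2 was the most widespread after Neurod1. It reached 10 CPM in 21 of 32 Mki67-high cells (65.6%, 48.3 to 79.6) and 44 of 75 Mki67-low cells (58.7%, 47.4 to 69.1). Its levels were divided between high and near 0: of the 75 Mki67-low cells, 34 had at least 100 CPM and 8 at least 1000, while 23 had a count but stayed under 10 CPM. Library groups 1 to 6 gave Mki67-high sums of 18, 265, 71.3, 380, 227 and 272 CPM. The Mki67-low sums were 285, 288, 268, 635, 477 and 387 CPM. As for Neurod1, the Mki67-high sum was the lower in 6 of 6 groups, with a narrow gap in group 2 and overlapping ranges.

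The edgeR log2 fold change of Nhlh2 was −1.03 (SE 0.70, adjusted p = 0.769). Mean log2(CPM + 1) pointed the other way, at 5.41 ± 1.91 in Mki67-high and 5.11 ± 0.88 in Mki67-low cells, a difference of 0.31 ± 1.64 over 6 groups (exact sign-flip p = 0.6875). Fewer Mki67-high cells had very high levels, 1 of 32 reaching 1000 CPM, while the share with 10 CPM or more was not smaller.

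**Figure D2:**
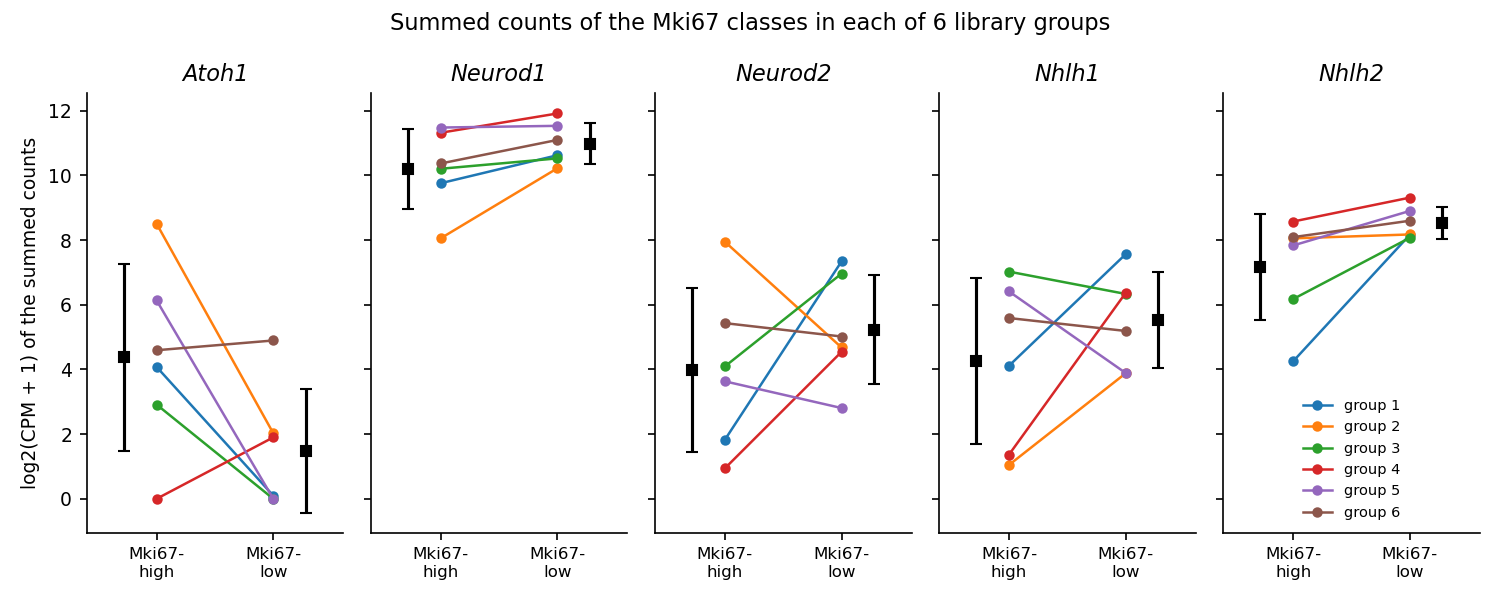
Each line joins the Mki67-high and Mki67-low sums of a library group on a log2(CPM + 1) axis, and black squares with bars are means with SD over 6 groups. The Neurod1 and Nhlh2 lines go up to the Mki67-low side in 6 of 6 groups, while the lines of Neurod2 and Nhlh1 cross and those of Atoh1 go down in 4 of 6.

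All 5 factors passed the filter on low counts. By edgeR 0 of the 5 were called at an adjusted p under 0.01 and 0 had an unadjusted p under 0.05, where 0.022% and 7.33% of the 9084 genes tested did. By DESeq2 0 of the 5 were called, with Atoh1 at an unadjusted p under 0.05 and an adjusted p of 0.191. DESeq2 called 376 of 15972 genes, and by it 2093 had an unadjusted p under 0.05. The factors that kept the same sign of the mean log2 difference in 6 of 6 groups numbered 0 of 5, against 7.68% of 11473 genes. The sums spread widely (biological coefficient of variation 172%), and the genes that edgeR called were the mitotic genes Tacc3 (log2 fold change 9.88, adjusted p = 0.00109) and Cdc20 (11.08, adjusted p = 0.00526). The median log2 fold change of all genes was −0.18, and it shifted by −0.29 with the block and by 0.27 to 0.37 with other size factors, DESeq2 or the other Mki67 limits, shifts of the size of the smaller fold changes above.

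Cells were next divided by neuronal genes that are not members: Mki67-high cells by Dcx, and Mki67-low cells by Rbfox3, the gene of the neuronal nuclear antigen NeuN. Values are means over library groups of mean log2(CPM + 1), and 10 such comparisons were made beside the 10 of shares and log levels between the Mki67 classes. Their p-values are not adjusted.

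Neurod1 was higher in the Mki67-low cells with more Rbfox3. In cells with Rbfox3 under 10 CPM (n = 31 cells) its mean log2(CPM + 1) was 9.59, 8.46, 8.19, 8.10, 10.68 and 9.01 in library groups 1 to 6. In cells with at least 100 CPM of Rbfox3 (n = 32) it was 10.49, 9.84, 10.61, 12.19, 11.71 and 11.74. The second value was the higher within 6 of 6 groups, although the ranges overlapped. The difference was 2.09 ± 1.23 on the log2 scale (exact sign-flip p = 0.03125, the smallest possible), and 1.06% of 11472 genes were likewise higher in 6 of 6 groups. The comparison was also confined to cells with at least 100 CPM of Dcx, called Dcx-expressing below (30 against 23 cells). There the difference was 1.43 ± 1.02, again positive in 6 of 6 groups. Without the astroglial-gene cells the difference between all Rbfox3-high and Rbfox3-low cells was 1.97. A Rbfox3-low cell of group 3 with 4 astroglial genes at 50 CPM or more stayed in this value. Rbfox3-low cells included 3 with Neurod1 under 10 CPM, 2 of which had little Dcx, and Rbfox3-high cells included none. The third, with 1.03 CPM of Neurod1 and 7338 CPM of Dcx, was 1 of the 4 Rbfox3-low cells of group 2. The others of that set had 1637, 2126 and 2187 CPM, so the order in group 2, and with it 6 of 6, rested on this cell. This cell stayed in the comparisons confined to Dcx or without astroglial-gene cells, and leaving it out was not tested. The 12 cells with 10 to 100 CPM of Rbfox3 averaged 10.91 ± 1.19 over 5 groups.

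The other factors gave no such order. Nhlh1 was higher with more Rbfox3 by 1.44 ± 1.54 in 5 of 6 groups (exact sign-flip p = 0.09375), and in Dcx-expressing cells by 0.71 ± 2.38. Nhlh2 was lower by 1.10 ± 1.91 on average, with 3 groups on each side (exact sign-flip p = 0.25), and in Dcx-expressing cells its difference was −1.86 ± 1.57 (exact sign-flip p = 0.0625). Neurod2 differed by 0.65 ± 1.43 (exact sign-flip p = 0.34375) and Atoh1 by 0.18 ± 0.82 (exact sign-flip p = 0.75). At 10 CPM or more, Nhlh1 was in 7 of 31 Rbfox3-low and 13 of 32 Rbfox3-high cells, and Nhlh2 in 20 of 31 and 17 of 32.

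Among Mki67-high cells, Atoh1 was found in those with Dcx. It reached 10 CPM in 7 of 19 cells with at least 100 CPM of Dcx (36.8%, 19.1 to 59.0) and in 0 of 13 cells with less, which allows a share of up to 23.1%. In library groups 1, 2, 3, 5 and 6, mean log2(CPM + 1) of Atoh1 was 3.05, 3.34, 0.83, 3.91 and 2.76 in the cells with Dcx. Without Dcx it was 0, 0, 0, 0.07 and 0 in the same groups, and group 4 had no Mki67-high cell with Dcx. In groups 1, 2 and 3 the Atoh1 level came from 1 cell each, in group 3 an astroglial-gene cell. The ranges did not overlap, which held in this direction for 1.55% of 11472 genes. The difference was 2.76 ± 1.15, positive in 5 of 5 groups (exact sign-flip p = 0.0625, the smallest that 5 groups allow), and 5.2% of genes were likewise higher in 5 of 5 groups. The Dcx-low cells numbered 1 in groups 2 and 6 and 2 to 4 in groups 1, 3 and 5.

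Astroglial-gene cells were 3 of the 19 Dcx-high cells and 0 of the 13 Dcx-low cells. Without them the Atoh1 difference was 2.26 ± 1.39, positive in 4 of 5 groups and 0 in group 3, so the ranges then overlapped. Without the cells of unusual depth it was 2.42 ± 1.54. The part of these cells in the result was not tested further. Neurod1 (1.08 ± 2.99), Neurod2 (−1.06 ± 3.89), Nhlh1 (0.40 ± 3.75) and Nhlh2 (−1.19 ± 4.46) differed by less than their SD between Dcx-high and Dcx-low cells.

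**Figure D3:**
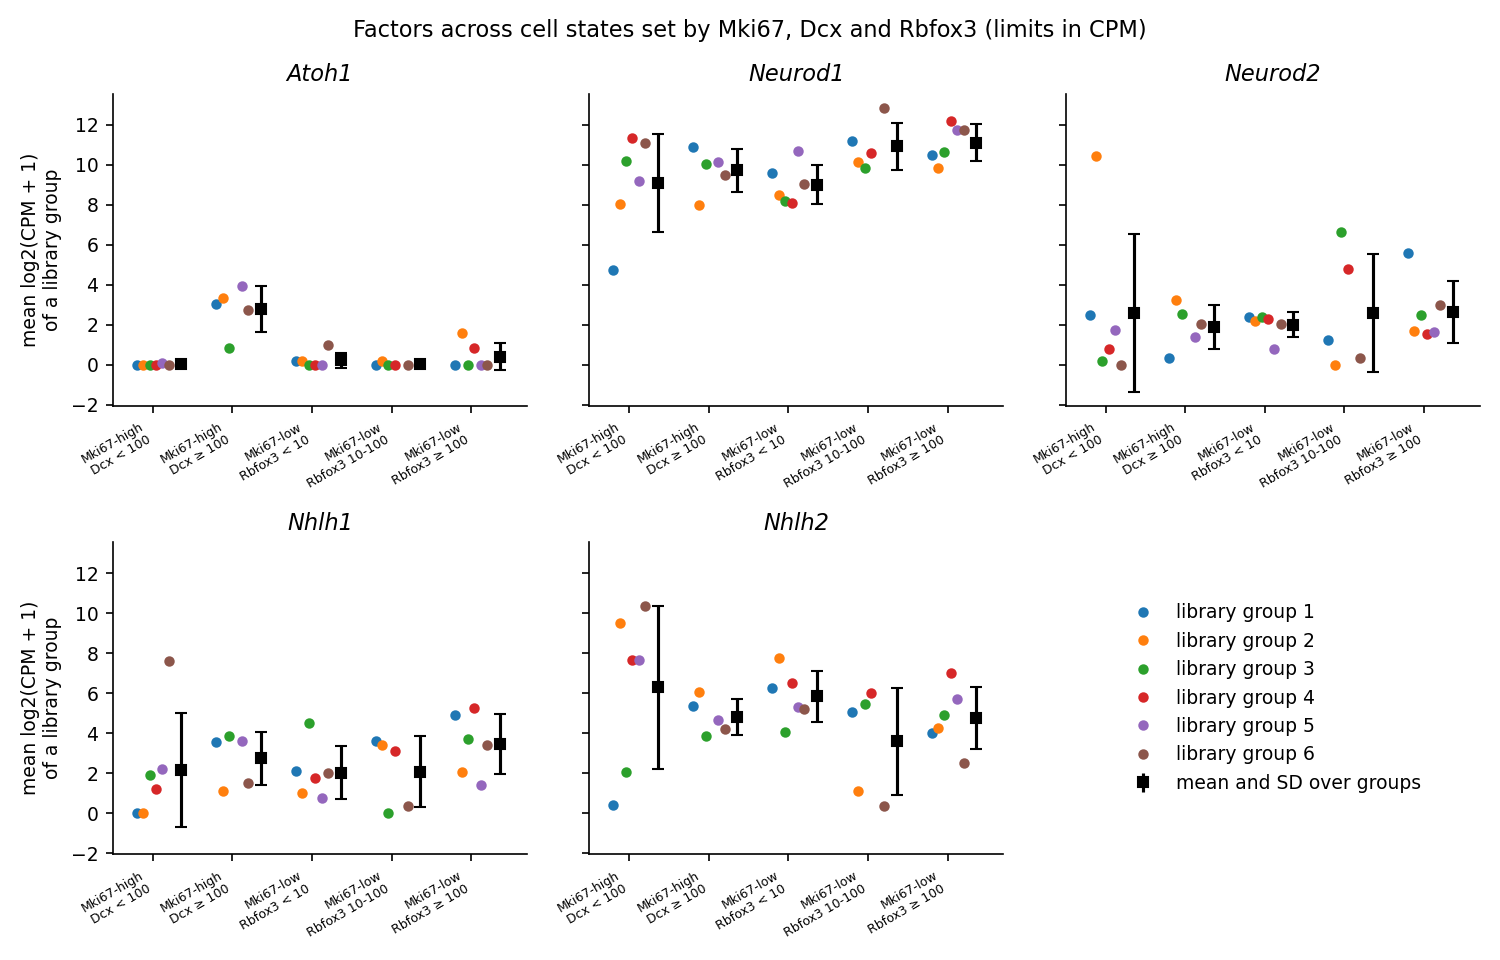
Points are library groups and the vertical axis is mean log2(CPM + 1) over the cells of a state; squares with bars are means with SD over the groups. Neurod1 sits higher at Rbfox3 of 100 CPM or more than under 10 CPM in 6 of 6 groups, in group 2 through 1 cell. Atoh1 is above 0.8 in each group of Mki67-high cells with at least 100 CPM of Dcx, in groups 1, 2 and 3 through 1 cell each.

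Most cells held more than 1 of the factors. At 10 CPM or more, 3 cells held none of the 5, 19 held 1, 44 held 2, 33 held 3, 8 held 4 and 2 held all 5. The 2 cells with all 5 were Mki67-high astroglial-gene cells with more than 10000 detected genes. The commonest set was Neurod1 with Nhlh2 (26 cells), followed by Neurod1 alone (19), Neurod1, Neurod2 and Nhlh2 (13) and Neurod1, Nhlh1 and Nhlh2 (12). Among these sets Neurod1 was the shared member, and a cell with another factor and no Neurod1 at 10 CPM was seen once, with Neurod2 and Nhlh2.

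Atoh1 was not separate from Neurod1. Of the 11 cells with at least 10 CPM of Atoh1, 11 also had at least 100 CPM of Neurod1, from 162 to 2997 CPM. Neurod1 was at 10 CPM or more in 94 of the other 98 cells (95.9%, 90.0 to 98.4), so its presence beside Atoh1 was close to its presence anywhere. Its median was 558 CPM in the cells with Atoh1 and 1677 CPM in those without, and within Mki67-high cells 307 CPM (n = 7) and 1123 CPM (n = 25). These medians are a description, since the cells of a library group are not replicates.

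The other pairs with Atoh1 were smaller. Nhlh2 was in 6 of the 11 Atoh1 cells (54.5%, 28.0 to 78.7) and 59 of the 98 others (60.2%, 50.3 to 69.3). Neurod2 and Nhlh1 were in 4 of 11 cells each (36.4%, 15.2 to 64.6), against 28 and 31 of the 98 others. Without the astroglial-gene cells, Nhlh1 was in 1 of 8 Atoh1 cells (12.5%, 2.24 to 47.1) and 30 of 97 others (30.9%, 22.6 to 40.7), Neurod2 in 2 of 8 and Nhlh2 in 4 of 8. At this number of Atoh1 cells no difference in these shares was detectable.

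Nhlh1 and Nhlh2, the closest relatives of the 5, shared 21 cells at 10 CPM. Nhlh2 was in 21 of 35 cells with Nhlh1 (60.0%, 43.6 to 74.5) and in 44 of 74 cells without it (59.5%, 48.1 to 69.9). At 5 counts it was in 42 of 54 cells with Nhlh1 (77.8%, 65.1 to 86.8) and 35 of 55 without (63.6%, 50.4 to 75.1). At that limit the share was higher beside Nhlh1 in 6 of 6 library groups. Without the cells of unusual depth it was higher in 5 and lower in 1. At 10 CPM it was higher in 4 and lower in 2, at 1 count 3 and 2, and at 1 count after thinning 4 and 2. Nhlh1 and Nhlh2 shared 67 cells at 1 count. Neurod2 cells held Nhlh2 in 24 of 32 cases (75%, 57.9 to 86.8) against 41 of 77 cells without Neurod2 (53.2%, 42.2 to 64.0), with the share higher beside Neurod2 in 4 of 6 library groups and lower in 2.

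Correlations of log2(CPM + 1) over all cells were weak between members, and the cells share library group and depth. The highest Pearson r values were 0.25 for Neurod1 with Nhlh1, 0.21 for Neurod2 with Nhlh2 and 0.17 for Neurod1 with Nhlh2. Atoh1 with Neurod1 gave −0.12.

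**Figure D4:**
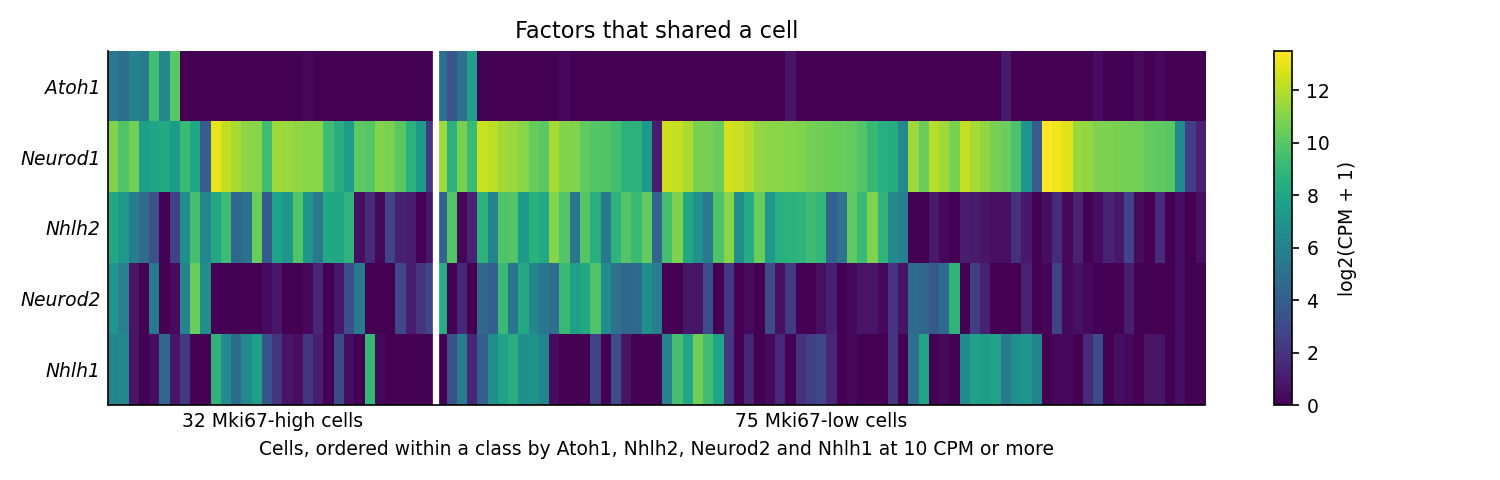
Columns are the 32 Mki67-high and 75 Mki67-low cells, rows are the factors, and colour is log2(CPM + 1). Neurod1 runs through nearly every column, the 7 and 4 Atoh1 cells stand at the left of each class with Neurod1 below them, and Nhlh2, Neurod2 and Nhlh1 are scattered in blocks that only partly coincide.

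For each factor, the 3 genes most like it were taken by Pearson r over all cells among 11469 genes with a count in at least 10 cells. For Atoh1 they were Thpo (r = 0.67), Ppic (0.65) and Zfp651 (0.63), which had counts in 14 to 17 cells. For Neurod1 they were the phosphatase gene Ppm1h (0.62), the stathmin gene Stmn2 (0.60) and the transcription factor gene Nfia (0.50), all detected in 108 or more cells. By ranks (Spearman rho) Ppm1h stood at 0.70, but Stmn2 at only 0.39 and Nfia at 0.24. Neurod2 was most like Socs2 (0.52), Dolk (0.40) and Abat (0.39). Nhlh1 was most like Stxbp5l, Celf3 and Apc2, each at 0.36, and Nhlh2 was most like Mex3a (0.37), Tubb3 (0.36), a tubulin of young neurons, and Tfap2a (0.35). Without the cells of unusual depth, the r values of Atoh1 were 0.62, 0.62 and 0.59 and those of Neurod1 0.63, 0.60 and 0.50. For the sparse factors these values rest on few cells and are no more than a ranking.

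The partners of the factors were present. Of the E proteins, Tcf4 was above 10 CPM in 32 of 32 Mki67-high and 75 of 75 Mki67-low cells, at 1844 ± 469 and 2329 ± 376 CPM in the sums (SD, n = 6). Tcf12 averaged 429 ± 451 and 312 ± 274 CPM, and Tcf3 26.5 ± 21.9 and 34.6 ± 48.6 CPM. By edgeR 0 of these 3 were called and 0 had an unadjusted p under 0.05, and DESeq2 gave the same numbers. Their median log2 fold change was −0.38, beside −0.18 for all genes.

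Of the Id inhibitors, Id2 was common, with 814 ± 471 CPM in Mki67-high and 1135 ± 441 CPM in Mki67-low sums. Id1 averaged 15.6 ± 33.8 and 13.6 ± 25.2 CPM, and Id3 and Id4 did not pass the filter on low counts. Both tested members had negative fold changes (median −0.26), and 0 had an unadjusted p under 0.05 by edgeR or DESeq2.

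Among Hes and Hey genes, several of which act below Notch receptors, Hes6 and Hey1 were tested. Hes6 averaged 160 ± 219 CPM in Mki67-high and 39.0 ± 52.1 CPM in Mki67-low sums (log2 fold change 2.06, SE 1.42), and Hey1 237 ± 384 and 27.9 ± 43.1 CPM (3.35, SE 2.05). Neither had an unadjusted p under 0.05 by edgeR or DESeq2. Hes1 reached 10 CPM in 4 of 32 Mki67-high and 1 of 75 Mki67-low cells, and Hes5 in 1 and 0.

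Other proneural and neural bHLH genes gave 5 testable members of 14 in the table, with 0 called and 0 under an unadjusted p of 0.05 by edgeR, 0 called and 2 under it by DESeq2, and a median log2 fold change of −0.49. Neurod6 averaged 134 ± 248 CPM in Mki67-high and 106 ± 145 CPM in Mki67-low sums, and Bhlhe22 34.3 ± 24.6 and 80.4 ± 101 CPM. Bhlhe41 averaged 62.1 ± 92.6 and 81.8 ± 75.9, and Olig2 2.18 ± 4.32 and 15.5 ± 32.2 CPM. Olig1 averaged 48.9 and 23.8 CPM, with SDs larger than these means. Neurod4 reached 10 CPM in 6 of 32 and 3 of 75 cells, Neurog1 in 1 and 0, Neurog2 in 1 and 4, and Ptf1a, a factor of GABAergic lineages, in 0 and 0.

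The remaining lists describe the classes themselves, and their DESeq2 calls stand beside 376 of 15972 genes called by that tool. Of 13 proliferation genes 7 were higher in Mki67-high sums at an unadjusted p under 0.05 by edgeR, Aurkb (log2 fold change 10.18), Ccna2 (6.36), Birc5 (5.68) and Ccnb1 (5.56) having the largest fold changes, with 0 called by edgeR and 5 by DESeq2. Of 10 postmitotic genes 5 were lower at that p, Nrcam (−2.25), Dcx (−2.23), Sema6a (−2.11) and Tubb3 (−1.48) among them, with 0 called by edgeR and 1 by DESeq2. Of 12 tested granule lineage genes 1, the contactin gene Cntn2, was lower at that p (−2.36) and 0 were called by either tool.

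Genes of other cell types were also measured. The 8 astroglial genes summed to 3.97 to 2489 CPM in Mki67-high and 53.1 to 2930 CPM in Mki67-low library groups, with 0 of 6 tested genes at an unadjusted p under 0.05. The 8 oligodendrocyte lineage genes summed to 60.7 to 2451 and 228 to 1370 CPM, with Pdgfra higher in Mki67-high sums (2.24) at that p and 0 of 6 called. Of the Purkinje cell and GABAergic interneuron genes 3 were tested, with Gad1 (−6.80) and Pax2 (−7.11) lower and Foxp2 (7.51) higher in Mki67-high sums at that p, and 0 called by edgeR and 3 by DESeq2. The 3 unipolar brush cell genes in the table summed to at most 322 and 366 CPM, with 0 of 2 tested at that p. The microglial, endothelial and blood genes did not pass the filter, and summed to at most 134, 25.1 and 8.65 CPM in any Mki67-high library group. DESeq2, run without that filter, called 3 microglial genes higher and 0 endothelial or blood genes. The part of these cells in the members' values was not tested beyond the results given without astroglial-gene cells.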

How the data were processed

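Single cells were prepared by the authors from P7 cerebella on a Percoll gradient and captured with the C1 Fluidigm system. Per the labels and the methods, the authors aligned reads to mm10 with STAR 2.4.1d, counted them per gene with HTSeq 0.6.1 and deposited raw counts without normalization. The strand setting is not given in the sources used here. Depth was 15071 to 8616017 counts per cell, and no 2 cells were identical. The factors and all gene lists were chosen with earlier results of these data known.

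CPM were computed over all listed genes. Counts were summed per Mki67 class and library group and tested with edgeR 4.0.16 in R 4.3.3 (TMM, filterByExpr, quasi-likelihood test, Benjamini-Hochberg adjustment over all genes, threshold 0.01, that of the study). Shares and mean log2(CPM + 1), with a pseudocount of 1, were compared within library groups by exact two-sided sign-flip permutation tests (Python 3.11.15, NumPy 2.4.6). Intervals are Wilson intervals at 95%. The 5 factors were always named, as were the 3 genes most like each and members of the 14 lists, up to 4 by fold change for lists beyond the bHLH genes and their partners. Pax6, Zic1 and Meis1, Tacc3 and Cdc20, and genes of single cells with little Neurod1 were chosen after their values were seen. Positions came from GENCODE on GRCm38, promoter sequences from RefSeq. Labels give cells no numbers shared between groups, and classes within a library group were blocked as an alternative. 1 listed gene is not reported here. Scripts were tested on simulated data, the edgeR fit being required to pass only at a spread lower than that of these sums. Alternatives were DESeq2 1.42.0, RLE size factors, no filter, the block, other Mki67 limits, other detection limits, thinning to 1000000 counts, pseudocount 10, cells of unusual depth or with astroglial genes left out, and each library group left out. Those of the Dcx and Rbfox3 comparisons were added after the values were seen.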

Additional observations from a re-analysis of the deposited data

Results flagged for a closer look

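In 4 of 20 sets of 6 library group values, the highest value lay far from the other 5 by Dixon's criterion. Its nominal rate of about 1 of 20 holds for independent, normally distributed values. Sums and log means here came from the same cells, so the 4 sets cannot be judged against that rate. For Atoh1 the Mki67-high sum of library group 2 was 362 CPM, the next being 69.2, and the Mki67-low sum of library group 6 was 28.8 CPM, the next being 3.08. Each came from 1 cell. For Neurod2 the Mki67-high cells of library group 2 stood apart in the sum, 246 CPM with the next at 42.2, and in mean log2(CPM + 1), 5.03 with the next at 1.95. This class held 4 cells in group 2, and 1 of them gave 93.5% of the Neurod2 counts.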

How the results depend on the processing

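Of 368 alternative values for 36 results, 318 stayed within the limits set for a change (for 5 library groups, which cannot reach the threshold, within 1 SD between groups), 40 moved further and 10 turned past them. The sign was opposite to that of the reported value in 22 cases, those 10 and 12 within the limits. The 2 genes called by edgeR became 376 with DESeq2 (267 of them higher), 6 with RLE size factors, 6 at an adjusted p under 0.05, 1 without the cells of unusual depth, 1 without the astroglial-gene cells and 0 to 1 with a library group left out. Calls numbered 0 with library group as a replicate block, where 601 genes had an unadjusted p under 0.05, and 0 with the other Mki67 limits, where 889 did. The factors were not called under any of these. The sign turned for Neurod2 in the log2 fold change with DESeq2 (0.087), with RLE size factors (0.14) and with a library group left out (−2.53 to 0.41), in the share of cells at 5 counts (1.23 percentage points), and in the Rbfox3 comparison within Dcx-expressing cells (−0.072). It turned for Nhlh1 in the share of cells at 5 counts (−4.50), at 10 CPM (−5.82) and after thinning (−2.24), and for Nhlh2 in mean log2 with a pseudocount of 10 (−0.062). With a library group left out it turned for the Nhlh1 share without group 4 (−1.18), the Neurod2 share without group 6 (2), the Neurod2 mean log2 without group 1 (0.046) or 4 (0.046) and the Nhlh2 mean log2 without group 2 (−0.038). In the Dcx comparison it turned for Neurod1 without group 1 (−0.19), Neurod2 without group 2 (0.47), Nhlh2 without group 6 (0.055), and Nhlh1 without group 1 (−0.40), without the astroglial-gene cells (−0.065) or without the cells of unusual depth (−0.0027), and in the Rbfox3 comparison for Atoh1 without group 2 (−0.065). Cells with both Atoh1 and Neurod1 numbered 18 at 1 count, 11 at 5 counts and 11 at 10 CPM, and those with both Nhlh1 and Nhlh2 67, 42 and 21, or 48 after thinning. The cause of these changes was not tested. A count of Neurod1 was found in each cell, while a sum of 0 for Atoh1 allowed up to 0.197 CPM, and each library group held 3 to 8 Mki67-high cells.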
